A study of Mus musculus with 8 samples.

Results

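The aryl hydrocarbon receptor (AHR) is a transcription factor that binds small molecules, and the 5 genes described here are the receptor and the parts of its circuit most often read out with it: *Ahr* itself, its DNA-binding partner *Arnt*, its repressor *Ahrr*, and the target genes *Tiparp* and *Cyp1b1*. They were chosen by gene symbol from a table of 53819 genes, and all 5 were expressed highly enough to be tested. RNA was sequenced from bone marrow-derived macrophages (BMDM), which are macrophages grown in culture from marrow precursors. Marrow came from 4 female BALB/cJ mice aged 8 weeks, and the cells of each mouse were kept apart and differentiated for 5 days with M-CSF, the macrophage growth factor, at 25 ng/mL. One culture of each mouse then received 2.5 µM bilirubin, the yellow end product of heme breakdown, and the other received DMSO as vehicle, both for 48 h, which gave 4 vehicle and 4 bilirubin libraries paired by mouse (mouse 1 to mouse 4). The labels name no deletion or transgene in any culture. The comparison asks which transcripts differ between bilirubin and vehicle in macrophages of the same animal.

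In resting cells AHR is held in the cytoplasm by heat shock protein 90 and co-chaperones. When a ligand binds, AHR moves to the nucleus, pairs with ARNT and binds short DNA elements with the core letters GCGTG, known as xenobiotic or dioxin response elements. Its best known targets are cytochrome P450 genes, and 2 further targets act back on it, since AHRR competes for ARNT and for the same DNA elements and TIPARP adds ADP-ribose to AHR and lowers its activity. Ligands include dioxins, tryptophan metabolites, and heme breakdown products such as bilirubin, and in macrophages AHR is known to limit inflammatory gene expression. BALB/c mice carry an *Ahr* allele whose protein differs from that of C57BL/6J, the strain of the reference genome, and the part this plays in the read assignment was not tested.

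Total counts on genes ranged from 37747315 to 47071714 in vehicle libraries and from 34142781 to 41054034 in bilirubin libraries. All 11 macrophage markers listed, among them *Adgre1*, *Csf1r* and *Cd68*, were expressed, with a summed level of 31164 to 31406 TPM (transcript abundance, a level scaled for transcript length and library size) in vehicle and 34948 to 38890 in bilirubin. Most of this sum and of its difference was *Lyz2*, the gene of lysozyme (mean 25985 TPM in vehicle and 32048 in bilirubin). *Lyz2*, *Adgre1*, *Itgam* and *Cd14* rose, while *Csf1r* (815.95 and 790.48 TPM) and *Cd68* (2755.5 and 2383.1 TPM) did not pass. Over all 13722 tested genes, 1033 (7.53%) passed the quasi-likelihood test of edgeR at a Benjamini-Hochberg adjusted p under 0.05, 616 of them higher (4.49%) and 417 lower (3.04%) with bilirubin. With scaling by library size alone the split was 527 higher and 556 lower, and the total was 1910 without mouse 1 and 634, 377 and 441 without mice 2, 3 and 4. Bulk RNA cannot tell apart fewer cells of a type and less RNA per cell.

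AHR acts on its target genes through the response element, so the 250 bases in front of the start site of the most abundant transcript of each gene were searched for GCGTG on both strands (GRCm39). *Ahrr* lies on chromosome 13 from 74359237 to 74440462 on the minus strand, and the window in front of it, chr13:74440463-74440712, held 3 matches. These began at positions -95, -70 and -15 relative to the start site. *Tiparp* lies on chromosome 3 from 65435320 to 65463365 on the plus strand, and its window, chr3:65435070-65435319, also held 3 matches, at positions -229, -186 and -114. *Cyp1b1* lies on chromosome 17 from 80008966 to 80022532 on the minus strand, and its window, chr17:80022533-80022782, held 1 match, at position -34. The 3 windows that hold matches are shown 5′ to 3′ on the strand of the gene, with each match in capitals. A match on the other strand reads CACGC.
Ahrr: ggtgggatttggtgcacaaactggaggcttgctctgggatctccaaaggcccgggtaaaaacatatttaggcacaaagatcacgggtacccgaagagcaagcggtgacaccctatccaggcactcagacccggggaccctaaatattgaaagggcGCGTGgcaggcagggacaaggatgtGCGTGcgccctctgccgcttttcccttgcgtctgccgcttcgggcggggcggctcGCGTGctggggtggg
Tiparp: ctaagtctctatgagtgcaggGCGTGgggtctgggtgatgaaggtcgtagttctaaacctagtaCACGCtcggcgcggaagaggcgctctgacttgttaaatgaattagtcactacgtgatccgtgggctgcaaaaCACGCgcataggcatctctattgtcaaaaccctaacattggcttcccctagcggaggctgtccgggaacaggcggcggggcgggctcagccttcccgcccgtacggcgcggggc
Cyp1b1: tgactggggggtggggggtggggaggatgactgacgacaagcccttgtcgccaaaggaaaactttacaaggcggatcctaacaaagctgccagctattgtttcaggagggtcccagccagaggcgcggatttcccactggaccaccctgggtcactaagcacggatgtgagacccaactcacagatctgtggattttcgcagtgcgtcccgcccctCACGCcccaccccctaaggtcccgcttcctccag
The windows of *Ahr* (chr12:35585058-35585307, minus strand) and *Arnt* (chr3:95341115-95341364, plus strand) held none. Among the 13626 windows read for tested genes, 5247 (38.5%) held at least 1 match, so that a match on its own is common. The longer form TNGCGTG was found once, in the *Ahrr* window, and in 827 (6.1%) of all windows. The start sites come from a later annotation than the one the counts rest on, and a match in letters is not a site shown to be bound.

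The genes were expressed at very different levels (TPM, mean ± SD, n = 4 mice per group). *Arnt* was highest, at 28.1 ± 0.738 TPM in vehicle and 26.6 ± 2.17 in bilirubin, followed by *Tiparp* at 15.1 ± 0.485 and 15.8 ± 1.57. Next came *Ahrr* with 6.32 ± 2.60 TPM in vehicle and 7.005 ± 2.47 in bilirubin, then *Ahr* with 1.93 ± 0.245 and 2.87 ± 0.881, and *Cyp1b1* last with 0.322 ± 0.241 and 0.287 ± 0.136. No pair of neighbours in this order overlapped over libraries in either group. The receptor was thus below its own repressor in level in both groups.

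Of the 5 genes, 1 changed at the threshold, the repressor *Ahrr*, and it rose. Over all tested genes 1033 (7.53%) changed at the threshold, 616 (4.49%) of them upward. All bilirubin libraries of both *Ahrr* and *Ahr* lay above all vehicle libraries, which was so for 814 (5.93%) of tested genes. *Arnt*, *Tiparp* and *Cyp1b1* did not pass, and their groups overlapped.

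*Ahrr*, which encodes the AHR repressor, was measured at 10.6, 11.4, 10.4 and 10.9 CPM (counts scaled for library size, here with TMM factors) in the vehicle libraries of mice 1 to 4. The bilirubin libraries of the same mice were at 18.8, 13.9, 18.7 and 16.4 CPM. The vehicle libraries lay close together, and the bilirubin libraries were all higher and more spread out, with mouse 2 the lowest. The mean went from 10.8 ± 0.455 to 17.0 ± 2.32 CPM (SD, n = 4), a log2 fold change of 0.64 (SE 0.098, 95% confidence interval 0.42 to 0.87, adjusted p = 0.00553 in edgeR). Within mice the log2 difference was 0.82, 0.28, 0.85 and 0.59, so mouse 2 rose the least. Without mouse 3 the log2 fold change was 0.57 and the adjusted p was 0.0636, and with an offset for the average transcript length in each library it was 0.20 with an adjusted p of 0.568.

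*Ahr*, the receptor, lies on chromosome 12 from 35547973 to 35585057 on the minus strand and is made up of 11 exons in its main transcript. It was measured at 7.55, 6.91, 6.30 and 5.60 CPM in vehicle and at 7.68, 8.91, 9.62 and 7.61 CPM in bilirubin. The gap between the groups was narrow, since the highest vehicle library (mouse 1) and the lowest bilirubin library (mouse 4) were nearly level. The mean was 6.59 ± 0.836 CPM in vehicle and 8.46 ± 0.979 in bilirubin (SD, n = 4), with a log2 fold change of 0.36 (SE 0.11, 95% confidence interval 0.11 to 0.62) and an unadjusted p of 0.0110 in edgeR. After adjustment over all genes p was 0.0991, so the difference did not pass. The within-mouse log2 differences were 0.025, 0.36, 0.61 and 0.44. Mouse 1 showed almost none, and without mouse 1 the log2 fold change was 0.47 with an adjusted p of 0.00843. The result also passed when genes with low counts were kept in the test, with an adjusted p of 0.0294. More genes passed in these settings, 1910 without mouse 1 and 1692 with low counts kept, against 1033 in the reported fit. Without mice 2, 3 and 4 the adjusted p of *Ahr* was 0.251, 0.397 and 0.337 in edgeR.

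*Arnt*, the partner that AHR needs to bind DNA and that hypoxia-inducible factors also use, lies on chromosome 3 from 95341365 to 95404551 on the plus strand. Its libraries were at 61.6, 59.9, 58.5 and 58.4 CPM in vehicle and 63.1, 58.4, 59.5 and 56.4 CPM in bilirubin, and the groups overlapped throughout. The log2 fold change was -0.0079 (SE 0.037, adjusted p = 0.943 in edgeR), with a 95% confidence interval from -0.094 to 0.078. This interval is the narrowest of the 5 genes, so a change of the size fitted for *Ahrr* lies outside it. The span of *Gm42672* overlaps that of *Arnt* on the same strand, and whether their exons overlap or reads were shared between them was not tested.

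*Tiparp*, which encodes the ADP-ribosyltransferase that acts back on AHR, was at 37.8, 40.8, 39.1 and 37.8 CPM in vehicle and 35.2, 46.1, 41.4 and 43.7 CPM in bilirubin. Mouse 1 was lower with bilirubin and the other 3 mice were higher, with log2 differences of -0.10, 0.17, 0.081 and 0.21. The log2 fold change was 0.092 (SE 0.058, 95% confidence interval -0.040 to 0.22, adjusted p = 0.435 in edgeR). Without mouse 1 it was 0.15 and passed with an adjusted p of 0.0484. As for *Ahr*, the difference of mouse 1 was the lowest of the 4.

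*Cyp1b1*, a cytochrome P450 that oxidizes steroids and polycyclic hydrocarbons and is a classical AHR target, had the fewest counts of the 5 genes. It had 9, 26, 84 and 37 counts in vehicle and 13, 42, 42 and 23 counts in bilirubin, or 0.918 ± 0.731 and 0.789 ± 0.377 CPM (SD, n = 4). Mice 1 and 2 were higher with bilirubin, by 0.83 and 0.72 on the log2 scale, and mice 3 and 4 were lower, with differences of -0.85 and -0.56. The log2 fold change was -0.057 (SE 0.38, adjusted p = 0.961 in edgeR), and its 95% confidence interval from -0.93 to 0.82 includes a change as large as that of *Ahrr* in either direction. The summed counts of 9 fibroblast and marrow stroma markers were 110, 152, 362 and 245 in vehicle and 123, 88, 328 and 110 in bilirubin. The library with the most *Cyp1b1* (vehicle, mouse 3) was also the one with the most stromal counts. The bilirubin library of mouse 2, next highest in *Cyp1b1* at 1.16 CPM, had the fewest stromal counts, at 88. *Lum* was at 0 in all libraries, and *Col3a1*, *Dcn* and *Lepr* were at 3 counts or fewer. The part of stromal cells in the *Cyp1b1* values was not tested.

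**Figure D1:**
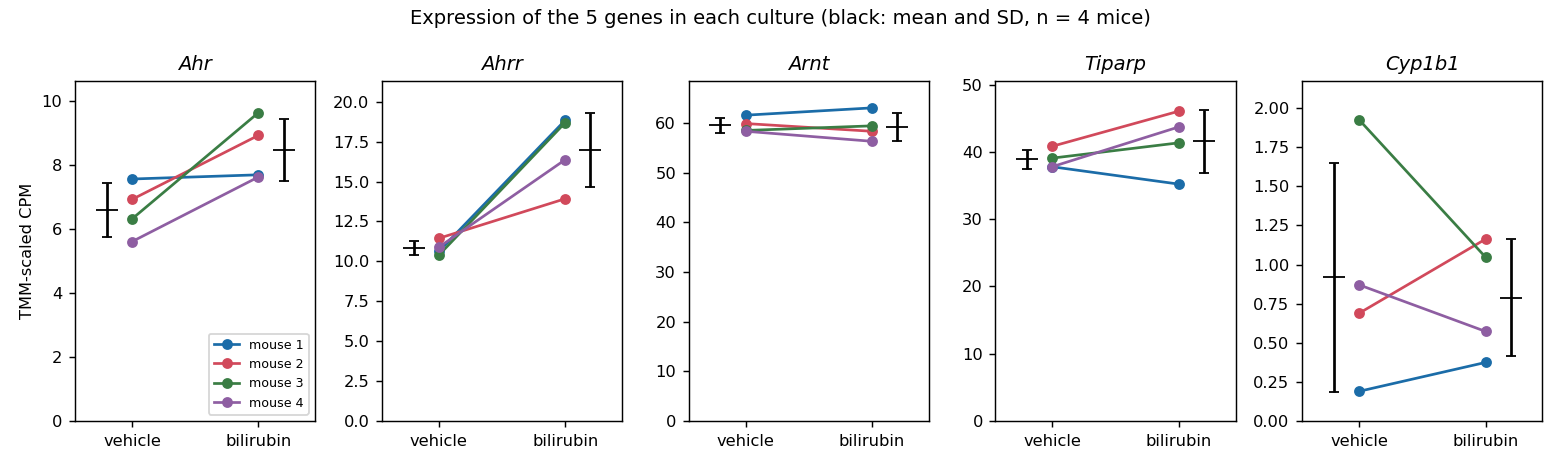
CPM of *Ahr*, *Ahrr*, *Arnt*, *Tiparp* and *Cyp1b1* in each library (TMM scaling), with vehicle and bilirubin cultures of the same mouse joined by a line and the mean with SD (n = 4) in black beside them. For *Ahrr* all 4 lines rise, from 10.4 to 11.4 CPM in vehicle up to 13.9 to 18.8 CPM in bilirubin, while the lines of *Cyp1b1* cross.

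**Figure D2:**
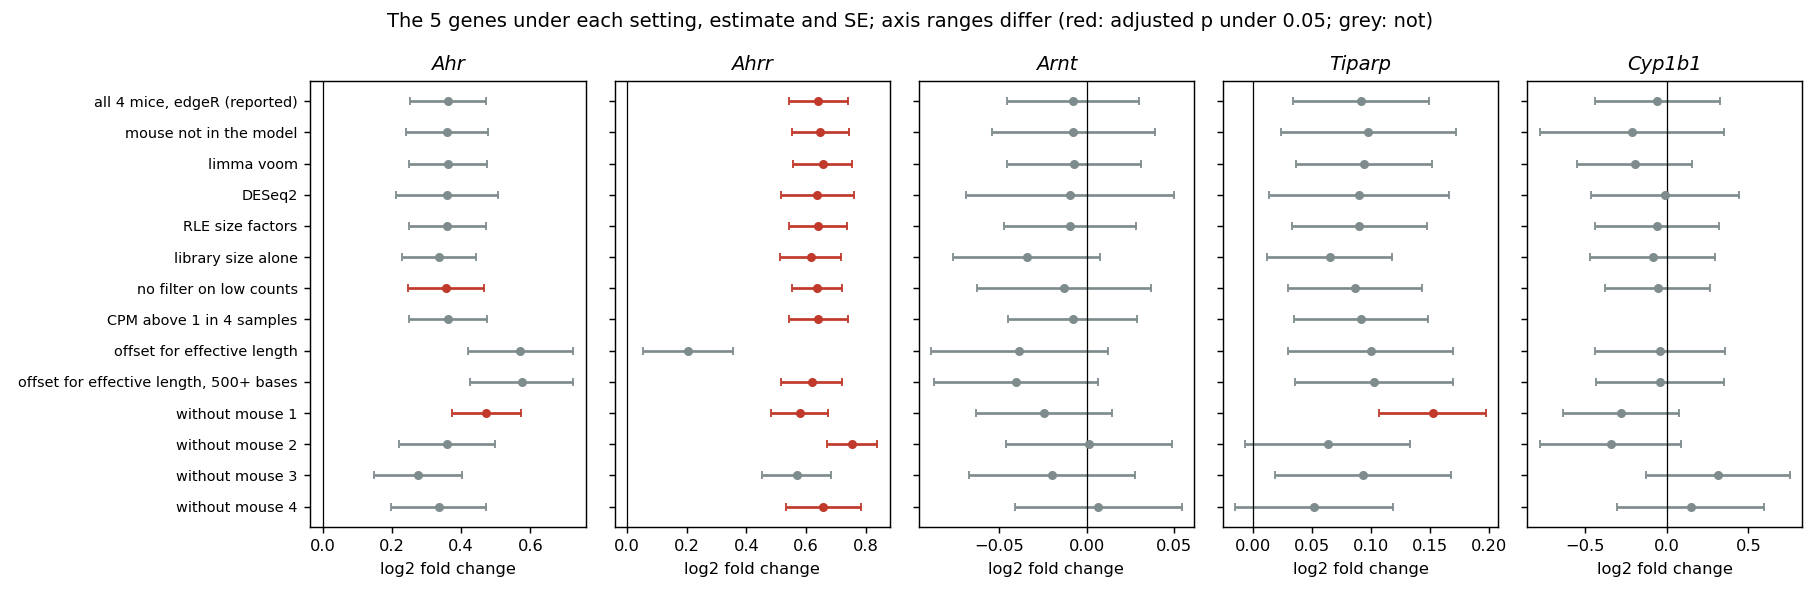
Log2 fold change (bilirubin against vehicle) of the 5 genes under each way of fitting the data (points with SE bars, red where adjusted p is under 0.05, with a separate axis range for each gene). *Ahrr* is above 0 under all settings and lowest, at 0.20, with the offset for transcript length, while *Ahr* stays between 0.28 and 0.57.

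The transcript files say which transcript of each gene carried the reads. Together the 5 genes have 27 annotated transcripts, of which 24 had reads, 11 were tested and 0 passed in edgeR's test over 38206 transcripts. In that test only 14 transcripts (0.0366%) passed, although 2879 (7.54%) had an unadjusted p under 0.05, so that it separates little. Its p-values also leave out the uncertainty of assigning reads to transcripts. Of the 11, 1 had an unadjusted p under 0.05, the main transcript of *Ahrr*. With limma voom, which was not among the fits planned for transcripts, 287 transcripts passed and again 0 of the 11.

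For *Ahrr* the main transcript was ENSMUST00000022059, a protein-coding transcript of 4754 bases with 11 exons. It was at 2.81, 3.65, 3.29 and 3.43 TPM in the vehicle libraries of mice 1 to 4 and at 6.26, 4.37, 5.84 and 5.01 TPM in bilirubin. All bilirubin libraries were above all vehicle libraries. The mean went from 3.29 ± 0.356 to 5.37 ± 0.845 TPM, with a log2 fold change of 0.74 (SE 0.16, adjusted p = 0.312 in edgeR), and the adjusted p was 0.133 with limma voom. Its share of *Ahrr* TPM was 59.0% ± 22.9 in vehicle and 80.9% ± 15.9 in bilirubin (SD, n = 4), and was higher with bilirubin in 4 of 4 mice.

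The TPM of *Ahrr* summed over transcripts did not separate the groups, unlike its CPM, and short transcripts added to that sum unevenly between libraries. ENSMUST00000123058 has 319 bases and no defined coding sequence, shares 82.4% of its bases with the main transcript, and has an effective length (the number of positions a fragment can start from) of 157 to 162 bases, against 4580 to 4589 for the main transcript. In the vehicle library of mouse 1 it was assigned 30.7 counts, which came to 6.49 TPM and 64.2% of *Ahrr* TPM in that library. Its share was 32.4%, 10.7% and 0% in the vehicle libraries of mice 2 to 4 and 6.78%, 0%, 24.6% and 6.59% in the bilirubin libraries of mice 1 to 4. ENSMUST00000137538, of 363 bases, was assigned 12.5 counts in the bilirubin library of mouse 1, which came to 2.88 TPM. As a share of counts rather than TPM, the main transcript held 89.4% in vehicle and 96.1% in bilirubin. The average effective length of *Ahrr* ran from 1655 bases in the vehicle library of mouse 1 to 4593 in the bilirubin library of mouse 2. When the length offset was computed only over transcripts of 500 bases or more, the log2 fold change of *Ahrr* was 0.62 with an adjusted p of 0.0136 in edgeR. This version was chosen after seeing the data.

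For *Ahr*, nearly all reads fell on the protein-coding transcript ENSMUST00000116436, at 1.91 ± 0.254 TPM in vehicle and 2.26 ± 0.187 in bilirubin (log2 fold change 0.29, SE 0.14, adjusted p = 0.779 in edgeR). A second transcript, ENSMUST00000110811, of 1155 bases and annotated as a target of nonsense-mediated decay, had reads in the bilirubin libraries of mice 1 and 3 and in no other library. There it was assigned 15.6 and 44.7 counts and made up 25.3% and 41.7% of *Ahr* TPM. All of its bases lie within the main transcript's exons, so the assignment of these reads rests on Salmon's model.

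*Arnt* was split between the protein-coding transcripts ENSMUST00000090804 and ENSMUST00000102749. The first held 45.5% ± 3.06 of *Arnt* TPM in vehicle and 50.2% ± 3.92 in bilirubin and was higher with bilirubin in 3 of 4 mice. The second held 40.7% ± 2.12 in vehicle and 35.9% ± 4.06 in bilirubin, with log2 fold changes of 0.10 (SE 0.089) and -0.22 (SE 0.092) for this pair and adjusted p-values of 0.890 and 0.6997 in edgeR. *Tiparp* was carried almost wholly by ENSMUST00000047906, which held 99.7% and 98.6% of its TPM. The reads of *Cyp1b1* were spread over ENSMUST00000024894, at 0.248 ± 0.178 TPM in vehicle and 0.148 ± 0.0870 in bilirubin (adjusted p = 0.834 in edgeR), ENSMUST00000234361, which reached at most 18.9 counts in any library (adjusted p = 0.856), and ENSMUST00000234927, which had reads in the vehicle library of mouse 1 alone, where it held 71.7% of *Cyp1b1* TPM.

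**Figure D3:**
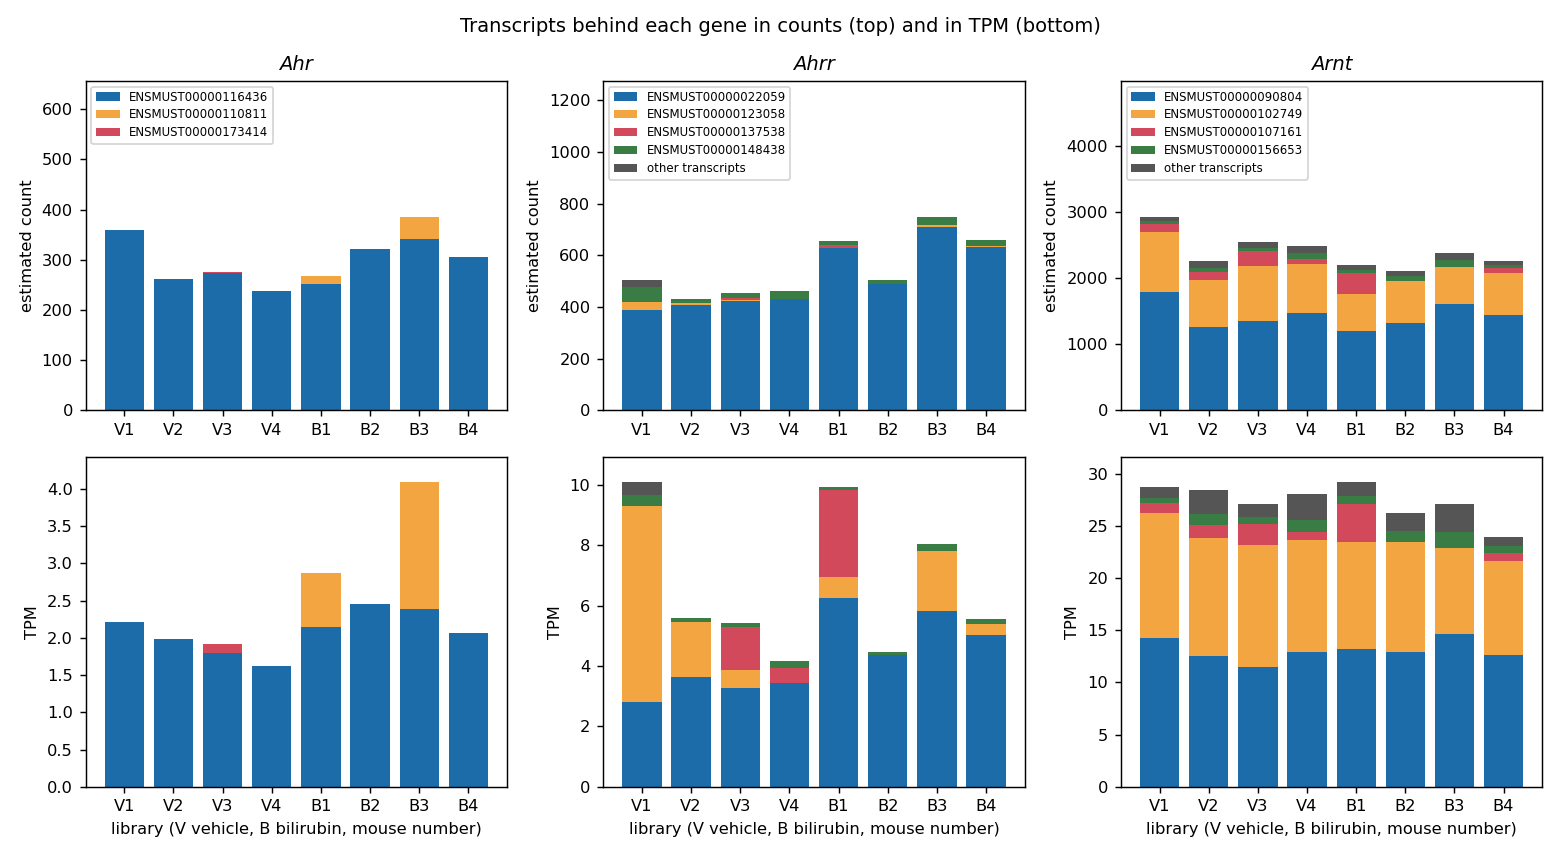
Transcripts of *Ahr*, *Ahrr* and *Arnt* in each library (V vehicle, B bilirubin, with the mouse number), stacked as estimated counts in the top row and as TPM in the bottom row. In the vehicle library of mouse 1 a 319-base transcript makes up 64.2% of *Ahrr* TPM, and in the bilirubin libraries of mice 1 and 3 a second transcript makes up 25.3% and 41.7% of *Ahr* TPM.

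The rest of the pathway was read from 4 gene lists in the same fit, described by counts and medians beside those of all tested genes. Over all 13722 tested genes, 1033 (7.53%) passed, 616 (4.49%) rose and 417 (3.04%) fell, with a median log2 fold change of -0.0018.

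Of 15 genes for AHR chaperones, co-activators and proteins that share partners with AHR or ARNT, all were tested, 1 rose and 2 fell, with a median of 0.068. *Relb*, an NF-κB subunit that can pair with AHR, rose from 15.6 ± 0.980 to 31.4 ± 4.84 CPM (log2 fold change 1.00, SE 0.078, adjusted p = 2.2e-04 in edgeR). Its vehicle libraries lay between 14.6 and 16.5 CPM and its bilirubin libraries between 24.4 and 35.3. *Epas1*, which encodes the hypoxia-inducible factor HIF-2α and also pairs with ARNT, fell from 22.7 ± 1.75 to 13.97 ± 3.76 CPM (log2 fold change -0.73, SE 0.11, adjusted p = 0.00471), with no overlap between groups. *Clock*, a circadian transcription factor of the same protein family as AHR, fell with a log2 fold change of -0.15 (SE 0.036, adjusted p = 0.0462), and this call passed in 6 of 13 alternatives. *Hsp90ab1* and *Hsp90aa1*, which encode the chaperone that holds unliganded AHR and had the highest TPM among those that did not pass, had log2 fold changes of 0.075 (SE 0.038) and 0.095 (SE 0.059). Without mouse 1 the list held 7 calls, and without any other mouse 2.

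Of 14 genes of the tryptophan and kynurenine route, which forms AHR ligands, 7 were tested, and 0 rose and 0 fell in edgeR, with a median of -0.013. An unadjusted p under 0.05 was found for 0 of these 7, beside 2851 (20.8%) of all tested genes, 6 of 15 in the list of AHR chaperones and partners, and 7 of 8 and 7 of 11 tested genes in the xenobiotic and immune lists described next. On the tryptophan list limma voom and DESeq2 also called 0. *Slc3a2*, the heavy chain of the carrier that brings tryptophan into the cell, had a log2 fold change of -0.020 (SE 0.058), and *Wars*, the tryptophan-tRNA ligase, 0.012 (SE 0.037). *Ido1*, whose enzyme opens the tryptophan ring, and *Aadat* were at 3 counts or fewer in every library.

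Of 15 other genes of the AHR battery of xenobiotic metabolism, 8 were tested, 4 rose and 0 fell, with a median of 0.25. *Nqo1*, which encodes a quinone reductase, was at 23.0, 25.0, 22.5 and 22.0 CPM in vehicle and at 34.5, 55.0, 53.3 and 43.0 CPM in bilirubin. Every bilirubin library was above every vehicle library, and mouse 1 rose the least (log2 fold change 0.98, SE 0.097, adjusted p = 6.99e-04 in edgeR). *Ugt1a6b* and *Ugt1a7c*, enzymes that attach glucuronic acid to their substrates, had log2 fold changes of 0.77 (SE 0.14, adjusted p = 0.0113) and 0.25 (SE 0.037, adjusted p = 0.00458). Of 13 alternatives, *Ugt1a6b* passed in 10 and *Ugt1a7c* in 12. *Nfe2l2*, the gene of NRF2, a regulator of antioxidant genes such as *Nqo1*, went from 170.4 ± 2.35 to 194.4 ± 10.6 CPM (log2 fold change 0.19, SE 0.040, adjusted p = 0.0262), a call that passed in 7 of 13 alternatives. The *Ugt1a* genes share their last exons, so reads can be assigned to the wrong one, and *Ugt1a6a*, with a log2 fold change of 0.26 (SE 0.064), missed the threshold at an adjusted p of 0.0516. *Xdh*, xanthine dehydrogenase, had a log2 fold change of 0.091 (SE 0.034, adjusted p = 0.167). The list held 6 calls without mouse 1, 1 without mouse 3 and 2 without mouse 2 or mouse 4.

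The classical AHR targets *Cyp1a1* and *Cyp1a2* could not be compared. *Cyp1a1* had 1 count in the vehicle library of mouse 2 and 0 in the other libraries, and *Cyp1a2* had 0 in all. A count of 0 allows up to 3 counts, or 0.0637 to 0.0879 CPM depending on the library, for counting error only.

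Of 18 genes reported to respond to AHR ligands or AHR loss in immune cells, 11 were tested, 3 rose and 0 fell, with a median of 0.075. These were *Il1b*, the gene of the inflammatory cytokine IL-1β (log2 fold change 2.80, SE 0.28, adjusted p = 7.1e-04 in edgeR), *Ptgs2*, the gene of cyclooxygenase-2 (1.11, SE 0.25, adjusted p = 0.0346), and *Klf4*, a transcription factor of monocytes and macrophages (0.30, SE 0.049, adjusted p = 0.00773). *Il1b* lay between 0.530 and 1.32 CPM in vehicle and between 2.63 and 10.7 CPM in bilirubin, while the groups of *Ptgs2* and *Klf4* overlapped. Without the mouse in the model, *Ptgs2* had an adjusted p of 0.05002 and *Klf4* of 0.219, which left 1 gene of the list. Of 13 alternatives, *Ptgs2* passed in 7, *Klf4* in 10 and *Il1b* in 13. The list held 6 calls without mouse 1, 2 without mouse 2 and 1 without mouse 3 or mouse 4. *Vegfa*, a growth factor for blood vessels, had a log2 fold change of 0.075 (SE 0.079), and *Entpd1*, which breaks down extracellular ATP, -0.50 (SE 0.18, adjusted p = 0.164). *Ccl1*, *Areg*, *Ereg*, *Hes1* and *Il33* were at 3 counts or fewer in every library.

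**Figure D4:**
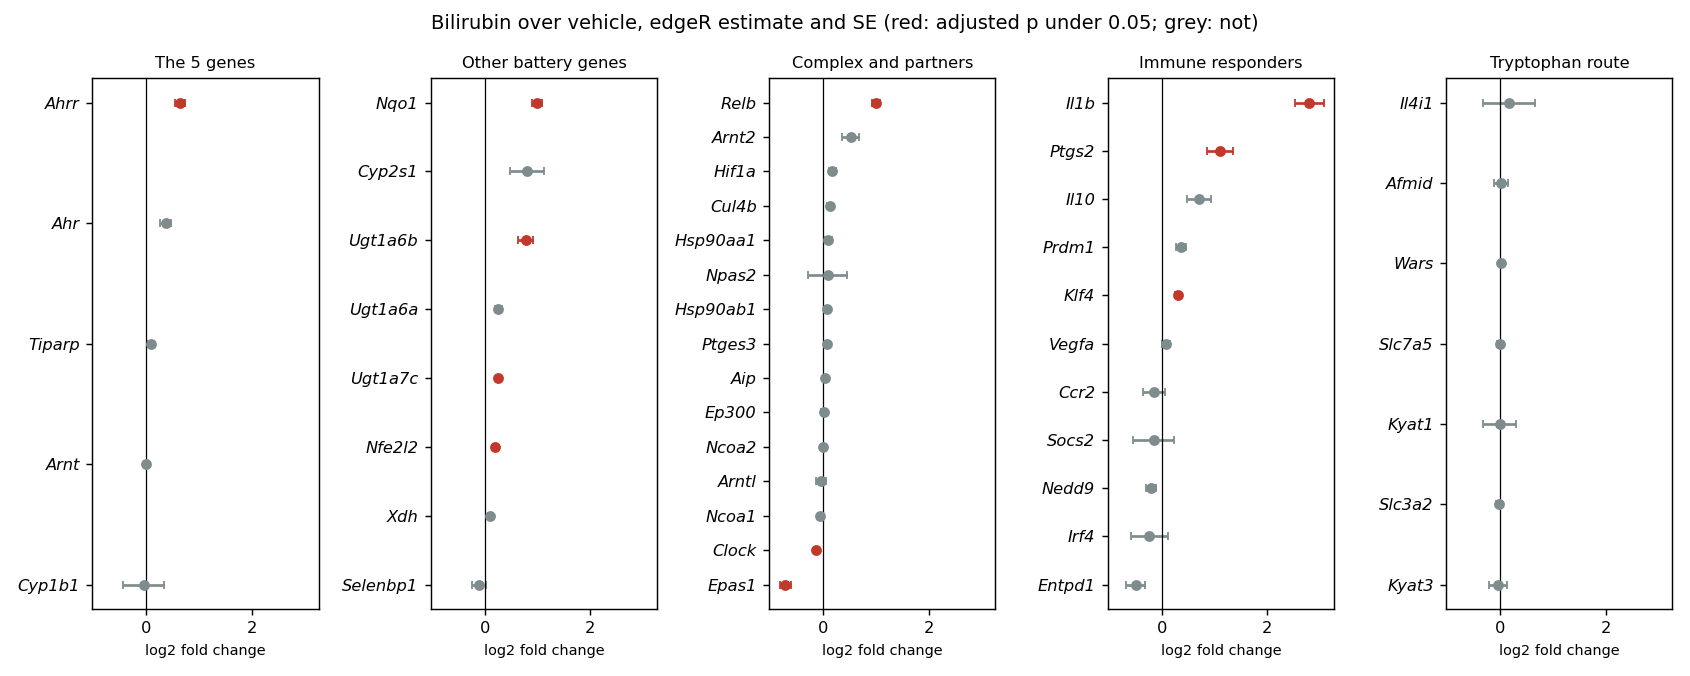
Log2 fold change (bilirubin against vehicle) of the 5 genes and of each tested gene of the 4 pathway lists (points with SE bars, red where adjusted p is under 0.05). The largest is *Il1b* at 2.80 and the lowest of the red points is *Epas1* at -0.73.

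Markers of other cells were also measured. The summed counts of 5 dendritic cell markers were 0 to 6 in vehicle and 7 to 24 in bilirubin, and those of 5 mast cell and basophil markers 7 to 19 and 10 to 29, with *Mcpt8*, *Ms4a2* and *Prss34* at 0. The 8 neutrophil markers summed to 88.0 to 107.0 TPM in vehicle and 94.6 to 118.7 in bilirubin, nearly all of it *Mmp8*, with *Ly6g* and *Camp* at 3 counts or fewer. The 5 endothelial markers summed to 9.29 to 12.4 TPM in vehicle and 10.8 to 19.1 in bilirubin, and *Emcn* had 1 count at most. Of the 3 that were tested, *Esam* rose (6.38 to 11.4 TPM, log2 fold change 0.81, adjusted p = 0.00818 in edgeR), while *Cdh5* (1.06 and 0.811 TPM, log2 fold change -0.31) and *Kdr* (3.31 and 3.35 TPM, log2 fold change 0.028) did not pass. The part of these cells in the rise of *Ahrr* was not tested.

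The genes whose profile over the 8 libraries was most like that of *Ahrr* were *Slc2a6*, *Mcoln2* and *Lilra6*. Likeness was measured as the root mean square difference of log2 CPM after centring each gene, which was 0.073, 0.078 and 0.086 for these genes, against a median of 0.359 over 10905 genes. They had log2 fold changes of 0.63, 0.66 and 0.61, beside 0.64 for *Ahrr*. The profile includes the difference between bilirubin and vehicle, so fold changes near that of *Ahrr* follow from the choice.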

How the data were processed

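RNA from 8 BMDM cultures was sequenced as poly(A)-selected libraries. Per the labels, reads were trimmed with Trim Galore 0.6.7 and Cutadapt 3.4, aligned with STAR 2.7.9a to GRCm39 and quantified with Salmon 1.10.1. The authors deposited Salmon's estimated counts summed per gene and not normalized, and a file per library with the estimated count, TPM and effective length (in bases) of 142434 transcripts. Gene counts, after rounding, were analysed with edgeR 4.0.16 under R 4.3.3 (TMM scaling, filterByExpr with at least 10 counts and 15 in total, mouse and treatment in the model, quasi-likelihood test, Benjamini-Hochberg adjustment over 13722 genes, threshold 0.05). The standard error is the size of the fold change divided by the square root of F, and log2 CPM used a prior count of 2. The 38206 tested transcripts were fitted in the same way. Alternatives used limma 3.58.1 (voom), DESeq2 1.42.0, other scalings, filters and length offsets, and each mouse left out. The procedure was tested on simulated data.

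Cultures were paired because the labels give the same culture number for both. That each number is 1 mouse rests on the authors' methods, which use the mouse as a covariate. Deviations from the group means correlated at 0.086 on average within mice and at -0.028 between mice. The second value largely follows from the first, because deviations from a group's own mean cancel out over its libraries. Each pair is 1 animal, so the spread is between animals. Promoter windows were read from GRCm39 with GENCODE start sites. The members, lists and the rule for named genes (the 5 genes, list genes that passed, the 2 with the highest TPM of each list that did not, and the 3 genes most like *Ahrr*) were chosen with earlier results of these data known. Raw reads and protein sequences were not analysed here, and the results of 2 marker lists and of 1 further marker are not reported here.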

Additional observations from a re-analysis of the deposited data

How the results depend on the processing

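Across the 13 alternatives for genes, *Ahrr* was above 0 in 13 and passed in 11. It missed with the offset for effective length (0.20, adjusted p = 0.568 in edgeR) and without mouse 3, and its log2 fold change ran from 0.57 to 0.75 when single mice were left out. *Ahr* was above 0 in 13 and passed in 2, with no filter on low counts (0.36) and without mouse 1, with a range of 0.28 to 0.47 over mice left out. *Tiparp* passed in 1, with a range of 0.052 to 0.15. *Arnt* passed in 0 and changed sign without mouse 2 (0.0014) and mouse 4 (0.0066), with a range of -0.024 to 0.0066. *Cyp1b1* passed in 0 of 12, was not tested with the filter of CPM above 1 in 4 libraries, and changed sign without mouse 3 (0.31) and mouse 4 (0.15), with a range of -0.34 to 0.31. The cause of these changes was not tested.

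The count of genes past the threshold, 1033, was 686 (228 lower) without the mouse as replicate block, 1692 (774 lower) with no filter, 578 (372 higher, 206 lower) with the length offset and 676 (248 lower) with the offset over transcripts of 500 bases or more. It ran from 377 without mouse 3 to 1910 without mouse 1 (265 to 1026 higher, 112 to 884 lower). The immune list held 1 call without the block, the complex list 5 and the immune list 5 with no filter, and with mice left out the complex list held 2 to 7, the battery list 1 to 6 and the immune list 1 to 6. Without the block the calls of *Clock*, *Ptgs2* and *Klf4* were lost, and no call on the 5 genes or on the other passing genes of the 4 pathway lists changed.

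Transcripts past the threshold were 14, against 210 without the replicate block, 42 with CPM above 1 in 4 libraries, 287 with limma voom and 0 to 1 with mice left out. The sign changed for ENSMUST00000148438 of *Ahrr* (-0.78 to 0.097) and ENSMUST00000149051 of *Arnt* (-0.21 to 0.057) with mice left out and for ENSMUST00000107161 of *Arnt* with limma voom (0.995), and none of these passed in edgeR.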
